A study of Rattus norvegicus with 6 samples.

Results

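The insulin-like growth factor (IGF) system of the rat adrenal gland was described here through 10 genes: the ligands Igf1 and Igf2, the receptors Igf1r, Insr and Igf2r, the binding proteins Igfbp2, Igfbp3, Igfbp5 and Igfbp6, and the receptor adaptor Grb14. Members were all probe sets that the array's annotation table assigns to one of these genes. They are 10 of the 4736 genes that at least 1 probe set names alone, and were read by 25 of the 8740 probe sets that are not controls. The 25 were designed from 21 sequence accessions, and each named 1 gene alone. The spontaneously hypertensive rat (SHR, 3 arrays), an inbred model of high blood pressure, was set against the Wistar-Kyoto rat (WKY, 3 arrays), its usual normotensive comparison. The tissue was whole adrenal gland, total RNA, on Affymetrix RG-U34A oligonucleotide arrays. The labels name no treatment or time point and give neither age nor sex. They do not state that the 3 arrays of a strain stand for separate animals, so a p-value reflects the scatter of these samples alone, which could be technical.

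IGF-I and IGF-II are secreted peptides that signal growth and survival through the IGF-I receptor, a tyrosine kinase closely related to the insulin receptor. The receptor encoded by Igf2r, which also carries mannose 6-phosphate ligands, takes IGF-II up for degradation. Binding proteins hold most IGF outside cells and so set how much reaches a receptor, and Grb14 binds the activated insulin receptor inside the cell and inhibits its kinase. In the adrenal gland IGFs are known for supporting growth and steroid output of cortical cells, and IGF-II is abundant in the fetal gland.

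Defining markers of both adrenal compartments were measured, among them Star and Cyp11a1 of the steroid-making cortex and Th and Pnmt of the catecholamine-making medulla. All 8 cortex and all 11 medulla markers with a probe set of their own passed the filter on low values. That does not by itself identify the tissue, since 3144 of 4736 genes passed, including all 13 fibroblast and capsule matrix markers and 9 of 12 liver and plasma protein markers. The deposited arrays had a common trimmed mean of 2504. The 3' to 5' ratio of the hexokinase control, a measure of RNA degradation, was highest in SHR replicate 2, at 4.21, and lay between 1.96 and 2.54 elsewhere. The same ratio of the Gapdh control did not set that array apart, at 0.947 beside 0.901 to 1.14 elsewhere. By the recorded clock times, from which runs were inferred, the arrays fell into 2 hybridization runs. The first held SHR replicate 1 and all 3 WKY arrays, the second SHR replicates 2 and 3. A comparison within a run therefore rests on SHR replicate 1 alone against the 3 WKY arrays.

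The 1 IGF system gene called between the strains was Grb14, which was higher in SHR. That call stood at the edge of the threshold and was lost in 13 of 18 alternative settings. The transcripts of both ligands, all 3 receptors and the tested binding proteins gave no call, which does not show that they were unchanged. Igfbp5 had no probe set above the filter and was not tested. A call means a limma p under 0.05 after Benjamini-Hochberg adjustment over all 5244 probe sets tested, those whose mean log2 value lay above the 40th percentile. By that rule limma called 1 of the 17 IGF system probe sets tested (1 higher, 0 lower), and 1.95% of all tested probe sets (1.07% higher, 0.877% lower in SHR). At an unadjusted p under 0.05 there were 2 of 17, both higher, beside 13.9% of all tested probe sets (6.77% higher, 7.11% lower).

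Most of the tested differences were positive, meaning higher in SHR. Of the 17 tested probe sets 15 were positive, where 49.1% of all tested probe sets did, and their median log2 difference was 0.24 beside -0.007 over all. The 3 SHR arrays lay wholly above the 3 WKY arrays in 5 of the 17 and wholly below in 0, while 10.2% and 10.5% of all tested probe sets did so. Several of these probe sets read the same transcript, so the 17 are not independent. The other 8 probe sets were under the filter and were not tested for a call. They comprised 2 of Igf1, 3 of Igf2 and all 3 of Igfbp5, and of the 8, 3 had a positive and 5 a negative difference, the sign turning in at least 1 alternative setting for 3 of them. With the hybridization run as a block limma called 0 of the 17 (2 at an unadjusted p under 0.05), and 14 of the 17 kept their sign. These 2 were Grb14 and Insr, while the 2 without the block were Grb14 and Igfbp2 A09811cds_s_at. Under the block 0.381% of all tested probe sets were called and 9.19% had an unadjusted p under 0.05.

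**Figure D1:**
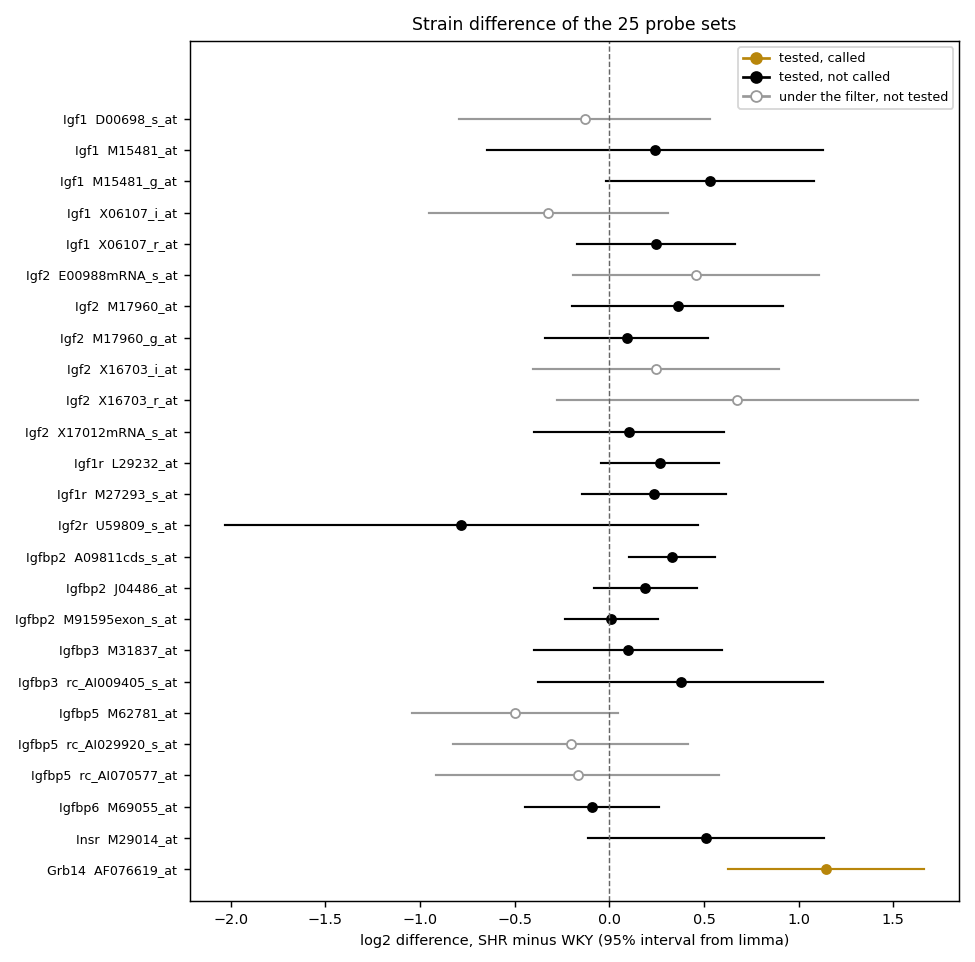
Log2 difference of SHR minus WKY for each of the 25 probe sets, with the 95% interval from limma (filled points passed the filter, open points did not). Grb14 at 1.15 is the called probe set, the interval of 1 Igfbp2 probe set lies above 0 without a call, and Igf2r at -0.78 has the widest interval.

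Grb14, the adaptor, is read by a single probe set (AF076619_at). Its intensities were 3452.5, 2813.8 and 2478.9 in SHR replicates 1 to 3, against 894.9, 1538.0 and 1264.4 in WKY replicates 1 to 3. The lowest SHR array was above the highest WKY array, and the strains did not overlap. The means were 2915 ± 495 in SHR and 1232 ± 323 in WKY (SD, n = 3 each). On the log2(intensity + 181.5) scale, on which all differences below are given and which understates the change of dim probe sets, Grb14 rose by 1.15 ± 0.22 (SE), a 2.21-fold difference with a 95% interval in log2 of 0.63 to 1.66 (limma adjusted p = 0.0483). By p it ranked 102 among the 102 called probe sets, so it stood at the edge of the threshold.

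The Grb14 call was lost in 13 of 18 alternative settings, while the difference stayed between 0.90 and 1.39 in all 18. It was lost each time 1 array was left out, at 0.96 without WKY replicate 1 (adjusted p = 0.120) and at 1.30 without WKY replicate 2 (0.0641), the lowest and highest of these 6 differences. Without SHR replicate 2, the array with the high hexokinase ratio, it was 1.16 (0.178). Blocked on hybridization run, the difference was 1.39 ± 0.32 (SE; adjusted p = 0.202), and within the first run alone it was 1.39 (0.374).

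**Figure D2:**
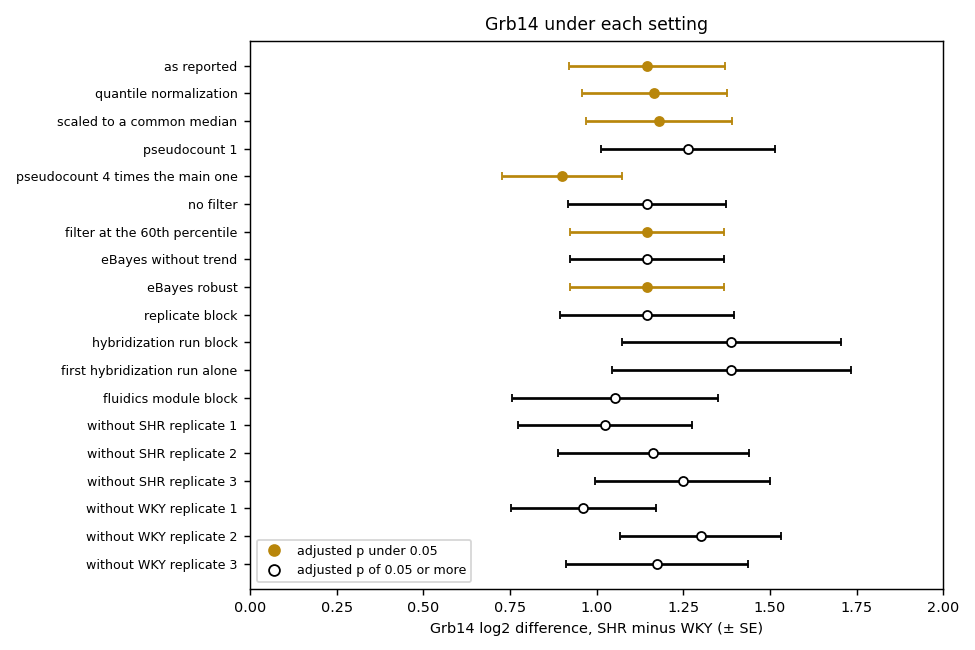
Grb14 log2 difference of SHR minus WKY, ± SE, as reported and under the 18 alternative settings, filled where the limma adjusted p was under 0.05. Every point lies between 0.90 and 1.39, and 5 of the 18 alternatives kept the call.

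The sequence before the Grb14 start is shown because Grb14 was the called member, with GC boxes (GGGCGG or its reverse complement, both strands) in capitals. It is the 250 bases before the RefSeq start, GRCr8 chr3:70091922-70092171, minus strand, from the reference strain, and the array measured nothing there.
Grb14: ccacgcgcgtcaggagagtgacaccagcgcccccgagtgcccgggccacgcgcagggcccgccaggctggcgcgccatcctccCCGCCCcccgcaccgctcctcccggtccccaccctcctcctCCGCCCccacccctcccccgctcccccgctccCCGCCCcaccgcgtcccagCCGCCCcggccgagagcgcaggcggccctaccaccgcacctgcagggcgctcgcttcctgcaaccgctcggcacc
The window was 80.0% G or C, more than 98.9% of the 33469 RefSeq promoter windows of that length. It held 4 GC boxes, and 30.5% of all windows held at least 1. The letters TATAAA, searched on both strands, were not in it, nor in the window of any other IGF system gene, while 12.9% of all windows held them. GC boxes also stood in the windows of Igf1r (1), Igf2r (2), Igfbp2 (1) and 1 of 2 Igf2 starts (1).

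The ligands did not pass the test. Igf1, the growth hormone-dependent ligand, was read by 5 probe sets from 3 accessions, and the 3 tested ones had differences from 0.24 to 0.53. The widest was in M15481_g_at, at 1823.4, 2243.8 and 2599.4 in SHR and 1820.0, 1647.4 and 1039.1 in WKY. The SHR arrays were all higher, but the nearest arrays of the strains, replicate 1 of each, were 3.4 intensity units apart. The difference was 0.53 ± 0.24 (SE, 95% interval -0.015 to 1.08, limma adjusted p = 0.374), and 0.28 when blocked on run. The SHR arrays also lay above the WKY arrays in X06107_r_at, at 1344 ± 54.9 in SHR and 1106 ± 124 in WKY (SD, n = 3 each; 0.25 ± 0.18 SE, adjusted p = 0.594). In M15481_at the arrays overlapped, and 1 SHR array at 1221.2 stood above the other 5, which ran from 356.6 to 581.1. Without that array, SHR replicate 3, the difference turned to -0.17, and with the run as a block to -0.31. The 2 Igf1 probe sets under the filter were at -0.13 (D00698_s_at) and -0.32 (X06107_i_at), and single arrays carried both signs. D00698_s_at turned to 0.03 without WKY replicate 2 and to 0.02 without SHR replicate 1. X06107_i_at was at -0.0056 without WKY replicate 1, which read 338.9 while the other 5 arrays ran from 62.6 to 123.0.

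Igf2, the ligand best known for fetal growth, had a positive difference over the 6 arrays and overlapping strains in each of its 6 probe sets, but the sign of 3 turned when 1 array was left out. The brightest of them, M17960_g_at, read 3372.7, 2794.6 and 4287.2 in SHR against 3377.3, 2922.5 and 3360.9 in WKY. The WKY arrays lay inside the SHR range. Its difference was 0.09 ± 0.19 (SE, 95% interval -0.34 to 0.52, adjusted p = 0.870), and without SHR replicate 3 it was -0.06. The other tested ones were M17960_at at 0.36 ± 0.24 and X17012mRNA_s_at at 0.10 ± 0.22 (adjusted p = 0.560 and 0.874). The first was at 0.16 without WKY replicate 3, and the second at -0.06 without WKY replicate 1. The 3 under the filter were E00988mRNA_s_at at 0.46, X16703_i_at at 0.24 and X16703_r_at at 0.68. X16703_i_at turned to -0.06 without SHR replicate 1, which read 246.8 while the other 5 arrays ran from 6.7 to 93.8. In X16703_r_at WKY replicate 1 read 83.8 while the other 5 arrays ran from 392.3 to 663.9, and without it the difference was 0.23. E00988mRNA_s_at ran from 0.25 to 0.63 without 1 array.

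**Figure D3:**
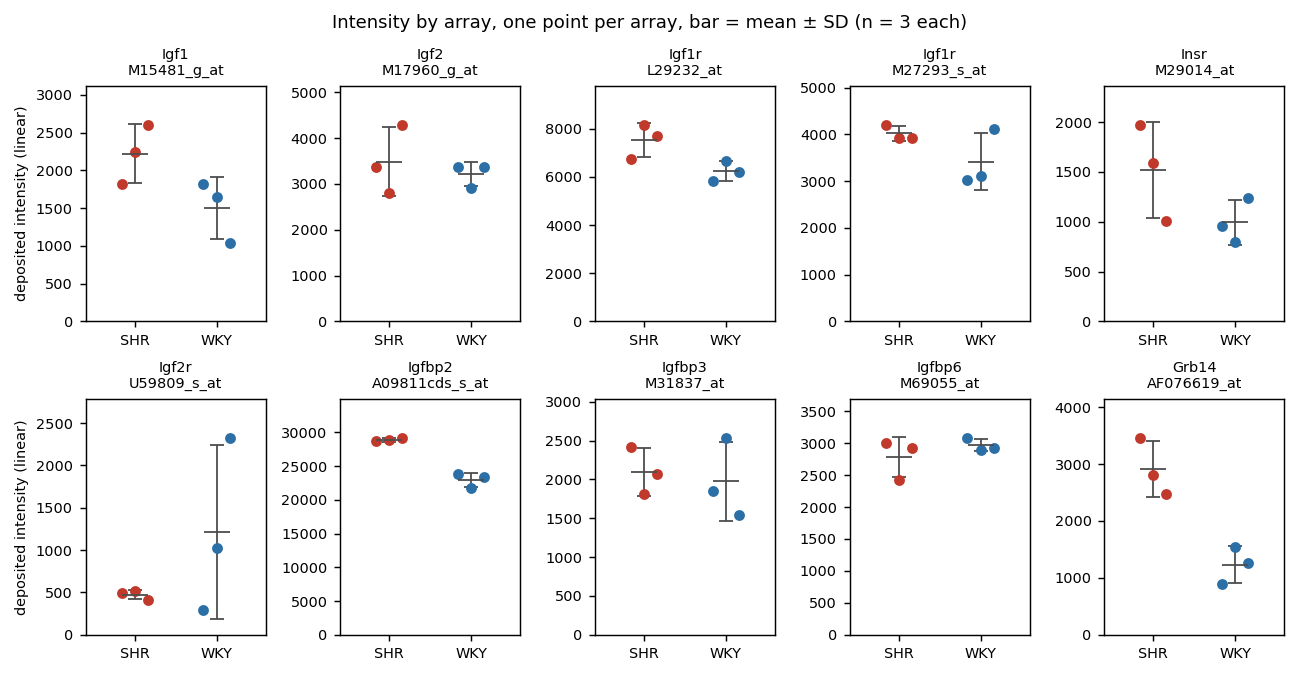
Deposited intensity on a linear scale for 10 probe sets, 1 point per array, with mean ± SD (n = 3 each), SHR left and WKY right. In Grb14 and 1 Igfbp2 probe set the strains are apart, in Igf1 and Igf1r L29232_at they are close to touching, and the 3 WKY arrays of Igf2r run from 286.7 to 2321.0.

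Igf1r, the kinase receptor for both ligands, gave 2 probe sets with nearly the same small difference. L29232_at was at 6756.4, 8148.0 and 7701.9 in SHR against 5824.9, 6645.0 and 6203.7 in WKY. The SHR arrays were all above the WKY arrays, by 111.4 between the nearest. The difference was 0.27 ± 0.14 (SE, 95% interval -0.05 to 0.58, limma adjusted p = 0.426), and 0.12 with the run as a block. M27293_s_at read 4202.6, 3935.2 and 3929.8 in SHR and 3031.3, 3101.2 and 4126.7 in WKY, so WKY replicate 3 lay among the SHR arrays. Its difference was 0.24 ± 0.16 (adjusted p = 0.574).

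Insr, the insulin receptor to which Grb14 binds, was at 1970.6, 1584.7 and 1009.4 in SHR against 953.2, 792.7 and 1234.2 in WKY. SHR replicate 3 lay below WKY replicate 3, so the strains overlapped. The difference was 0.51 ± 0.27 (SE, 95% interval -0.11 to 1.13, adjusted p = 0.443). It was 0.89 with the hybridization run as a block, which rests on SHR replicate 1, and 0.32 without that array.

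Igf2r, the clearance receptor, varied more among the WKY arrays than between the strains. U59809_s_at read 488.3, 521.4 and 411.2 in SHR, against 286.7, 1028.4 and 2321.0 in WKY. WKY replicate 1 was the lowest of the 6 arrays and WKY replicate 3 the highest. The coefficient of variation was 11.9% in SHR and 84.9% in WKY, and the difference of -0.78 ± 0.54 (SE, 95% interval -2.03 to 0.47) did not pass (adjusted p = 0.574). With each array left out in turn it ran from -1.41 (without WKY replicate 1) to -0.20 (without WKY replicate 3).

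Igfbp2, a binding protein with a preference for IGF-II, was measured by 3 probe sets, whose differences of 0.01 to 0.33 were not tested against each other. A09811cds_s_at read 28678.1, 28814.1 and 29135.1 in SHR against 23769.1, 21772.7 and 23362.1 in WKY. The SHR arrays were all above the WKY arrays and within 457 units of each other. The difference was 0.33 ± 0.10 (SE, 95% interval 0.10 to 0.56, a 1.26-fold difference), with an unadjusted p of 0.0101 and a limma adjusted p of 0.167, so it did not pass. J04486_at was at 27187 ± 2013 in SHR and 23817 ± 2167 in WKY (SD, n = 3 each; 0.19 ± 0.12 SE, adjusted p = 0.515). M91595exon_s_at was at 38398 ± 2793 in SHR and 38140 ± 2830 in WKY, a difference of 0.01 ± 0.11 (0.979) with a 95% interval of -0.24 to 0.26, which overlaps that of the first. Its sign turned in 6 of 18 alternative settings. In A09811cds_s_at the difference stayed between 0.27 and 0.37 over all 18.

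Igfbp3, the main carrier of IGF in plasma, overlapped between strains in both probe sets. M31837_at read 2418.9, 1808.0 and 2069.0 in SHR and 1856.8, 2528.8 and 1536.8 in WKY (0.10 ± 0.22 SE, adjusted p = 0.879). In rc_AI009405_s_at the difference was 0.38 ± 0.33 (0.665), with WKY replicate 3 at 573.7 and the other 5 arrays from 1201.4 to 1696.6. Without that array the second difference was 0.01. Igfbp6, which prefers IGF-II, also overlapped between strains. It read 2999.6, 2428.7 and 2931.5 in SHR against 3077.0, 2898.1 and 2931.4 in WKY, a difference of -0.09 ± 0.15 (95% interval -0.44 to 0.26, adjusted p = 0.848).

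Igfbp5, a binding protein that attaches to extracellular matrix, had 3 dim probe sets, all under the filter and all at negative differences over the 6 arrays, 1 of which turned positive without a single array. In M62781_at the arrays were at 218.4, 159.0 and 183.9 in SHR and 485.3, 270.3 and 282.7 in WKY. All SHR arrays lay below all WKY arrays. The strains did not overlap, in either direction, in 11.8% of all probe sets under the filter. The difference was -0.50 ± 0.23 (SE) in a fit without the filter, where the limma adjusted p was 0.498, and it ran from -0.60 to -0.32 without 1 array. The other probe sets overlapped between strains. rc_AI029920_s_at was at -0.20, and at -0.011 without WKY replicate 3. rc_AI070577_at was at -0.17, and turned to 0.25 without WKY replicate 2, which read 326.3 while the other 5 arrays ran from 27.7 to 90.5, and to 0.03 with a pseudocount of 1. In the RefSeq gene order Igfbp5 and Igfbp2 are neighbours on chromosome 9, and the 3 Igfbp2 probe sets had differences of 0.01 to 0.33.

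Other genes of IGF and insulin signalling gave no call by the brightest probe set of each gene. Of 66 genes listed, 45 had a probe set of their own and 37 passed the filter. Limma called 0 of the 37 (5 at an unadjusted p under 0.05, 3 higher and 2 lower), beside 1.65% of 3144 genes called and 13% at an unadjusted p under 0.05. The median difference of the 37 was 0.06. The 5 were H19 at -1.10, Akt2 at 0.79, Ywhaz at 0.52, Pdpk1, the kinase that activates Akt, at -0.64, and Map2k2, a kinase of the Ras pathway, at 0.32, with adjusted p of 0.0744, 0.0786, 0.109, 0.258 and 0.342.

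H19, a noncoding RNA that shares an imprinted domain with Igf2, lies near it on chromosome 1, with no protein-coding gene listed between them in the RefSeq order. It read 1708.8, 1355.0 and 1839.0 in SHR against 5185.1, 2787.9 and 3439.8 in WKY, and all SHR arrays were below all WKY arrays. The difference was -1.10 ± 0.24 (SE; adjusted p = 0.0744), beside 0.09 for the brightest Igf2 probe set. Blocked on run, H19 was at -1.03 (adjusted p = 0.464).

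Akt2, a kinase downstream of the insulin receptor, was higher in SHR on every array in both of its probe sets without passing. D30041_at read 3425.6, 3373.8 and 3508.8 in SHR against 2205.6, 2090.0 and 1509.9 in WKY (0.79 ± 0.18 SE, limma adjusted p = 0.0786). The second, rc_AI105076_s_at, was at 2604 ± 67.3 in SHR and 1401 ± 188 in WKY (SD, n = 3 each), a difference of 0.82 ± 0.17 (SE; 0.0538). With the mean of its probe sets in place of the brightest, Akt2 was called (0.81, adjusted p = 0.0367). With the run as a block the differences were 0.79 and 0.82, and neither passed (0.443 and 0.352).

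Ywhaz, a 14-3-3 protein that binds phosphorylated partners including insulin receptor substrates, rose in 2 of its 3 probe sets, the 2 that were not its brightest. D30740_g_at read 29521.8, 31112.1 and 31640.9 in SHR against 19089.5, 19106.7 and 18908.0 in WKY, a difference of 0.69 ± 0.10 (SE; limma adjusted p = 0.0140). D30740_at, from the same accession, rose by 0.58 ± 0.11 (0.0472), and the mean of the 3 was also called (0.59, adjusted p = 0.0293). The third was at 0.52 ± 0.13 (0.109), and in all 3 the SHR arrays were above the WKY arrays. With the run as a block D30740_g_at was at 0.63 (0.232) and D30740_at at 0.44 (0.464), and when single arrays were left out the first passed in 3 of 6 fits and the second in 0. These were the 2 called among 30 further tested probe sets of the 37 genes.

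Adaptors and ligands closest to the IGF system genes did not pass. Grb10, a relative of Grb14, was at 0.09 (adjusted p = 0.818), Grb2, which links receptors to Ras, at -0.04 (0.953), and Akt1 at 0.006 (0.992). Irs2, an insulin receptor substrate, was at 0.61 ± 0.30 (SE; 0.414) by its brightest probe set and at 1.72 ± 0.85 and 0.53 ± 0.64 by the others. With the run as a block these Irs2 differences were 0.15, 0.04 and -0.93. Ghr, the growth hormone receptor, was at -0.40 ± 0.77 (0.864) and Ins2, an insulin gene of rodents, at 0.33 ± 0.19 (0.472). Among the remaining genes of small p, Stat5a was at 0.68 (0.391), Map2k1 at -0.35 (0.422), and Irs1, Igfbp1 and Pik3r1 were under the filter.

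**Figure D4:**
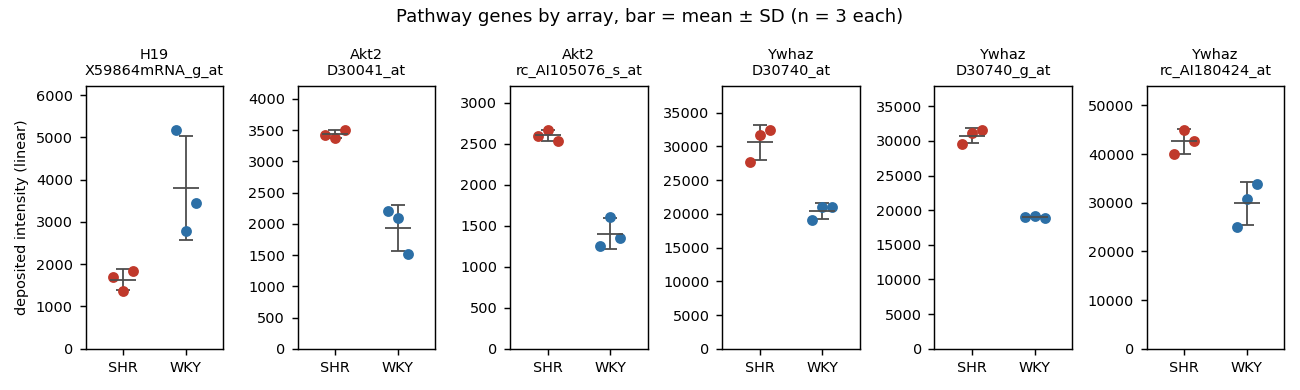
Deposited intensity by array for H19, both Akt2 probe sets and all 3 Ywhaz probe sets, with mean ± SD (n = 3 each), SHR left and WKY right. The strains are apart in all 6 panels, with SHR below WKY in H19 and above it in the others.

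The genes whose pattern over the 6 arrays was most like that of Grb14 were Me1, the cytosolic malic enzyme that makes NADPH, Gclc, the catalytic subunit of the enzyme that starts glutathione synthesis, and Slc41a3, a solute carrier. Among the brightest probe sets of 3135 other genes, Pearson's r of log2 values was 0.990, 0.986 and 0.985. These are descriptions over 6 arrays that share the strain split. With each strain's mean taken out, r was 0.937, 0.960 and 0.902 for these genes, which had been picked on the same arrays. Me1 rose by 1.29 (limma adjusted p = 0.0125) and Slc41a3 by 1.04 (0.0455), while Gclc was at 0.66 (0.155). With the run as a block they were at 1.38, 1.35 and 0.88, and none of these 3 probe sets passed (0.140, 0.135 and 0.343). Of the other 4 tested Me1 probe sets, however, M26594_at (1.35, adjusted p = 0.0355) and rc_AI008020_at (1.19, 0.0469) passed with that block and in all 6 fits without 1 array. In those 6 fits the Me1 probe set most like Grb14 passed in 4 and Slc41a3 in 1. The remaining Me1 probe sets, rc_AI171506_at (1.89 with the run as a block) and rc_AI171067_at (0.39), did not pass with that block. For Igf2 the most like were Dlgap4, Arl11 and Th, the rate-limiting enzyme of catecholamine synthesis (r = 0.959, 0.952 and 0.930), with differences of 0.06, 0.55 and -0.02.

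**Figure D5:**
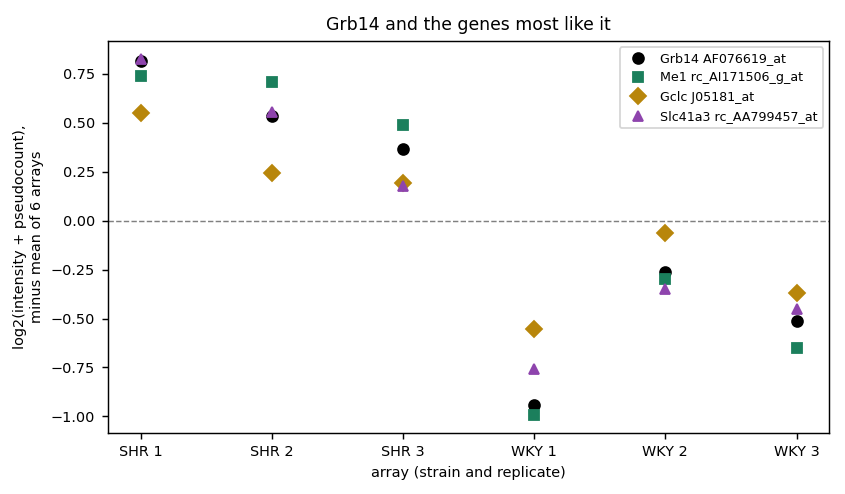
Log2(intensity + 181.5) of Grb14, Me1, Gclc and Slc41a3 on each array, minus each gene's mean of the 6 arrays. All 4 genes are above 0 on the 3 SHR arrays and below 0 on the 3 WKY arrays, with SHR replicate 1 the highest and WKY replicate 1 the lowest in each.

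Some markers of other cells were also called, and in whole glands fewer cells of a type cannot be told apart from less RNA per cell. Beside the counts below, where rose and fell mean called higher and lower in SHR, stands the share over all genes. By the brightest tested probe set limma called 1.65% of 3144 genes, so 1 call in a short list says little about the list. Of 13 tested fibroblast and capsule matrix markers 0 rose and 5 fell (Col1a1, Col1a2, Col3a1, Col5a1 and Fn1). The list did not move as one. Sparc and Mgp, its brightest members, were at 0.09 and 0.30, Mmp2 at 0.24 and Pdgfra at 0.04, all without a call. The summed intensity of the list ran from 97229 to 115728 in SHR and from 132724 to 144478 in WKY. All sums here cover every marker of a list with a probe set of its own, also those under the filter. Of 11 tested leukocyte markers 0 rose and 2 fell, Cd74 and RT1-Ba, with sums of 27657 to 31503 in SHR and 38576 to 68873 in WKY. Their median difference was -0.26. RT1-Da at -1.10, C1qb at -1.02, Cd4 at -0.43, RT1-Bb at -0.26, Cd14 at -0.10 and Lyz2 at -0.06 were negative without a call. Uncalled differences of the other sign were those of Cd79b (0.98), Ccl2 (0.46) and Ptprc (0.05). Of 11 tested medulla markers 0 rose and 1 fell, Dbh, with sums of 43502 to 54566 in SHR and 57830 to 66410 in WKY. The median difference of the medulla list was -0.53. Slc18a1 at -0.82, Snap25 at -0.70, Npy at -0.58, Pnmt at -0.57, Scg2 at -0.53 and Penk at -0.45 were negative without a call. Slc18a2 at 0.91 and Ddc at 0.14 were positive without a call, and Th was at -0.02 and Chgb at -0.08. Smooth muscle markers gave 1 rise of 5 tested, Acta2. Over the 8 with a probe set the sums were 24772 to 25540 in SHR and 18598 to 24329 in WKY. Acta2 itself, part of these sums, ran from 3607.5 to 4296.4 in SHR and from 1402.4 to 1486.9 in WKY. Tagln and Myl9 were both at 0.14, Tpm1 at -0.02 and Myh11 at -0.14, without a call.

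Of 8 tested adipocyte markers 0 rose and 1 fell, Cfd, with sums of 43634 to 52747 in SHR and 45174 to 83235 in WKY. The 8 had a median difference of -0.36. Fabp4 at -1.52, Lipe at -0.41, Slc2a4 at -0.39 and Ucp1 at -0.33 were negative without a call. Lpl at 0.38, Pparg at 0.04 and Lep at 0.004 were positive without a call. The lists of cortex (8 tested), endothelium (9), liver and plasma proteins (9) and kidney (6) gave 0 calls. Their sums overlapped between strains except for liver and plasma proteins, at 9890 to 11073 in SHR and 12541 to 13874 in WKY. Cortex markers summed to 305547 to 434618 in SHR and 330300 to 477370 in WKY. Of 119 listed marker genes 96 had a probe set of their own, 16 of them under the filter, and by its brightest probe set 0 of the 96 were at 0 in any array. The part of these cell markers in the Grb14, H19, Akt2 and Ywhaz differences was not tested.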

How the data were processed

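Whole adrenal RNA of 3 SHR and 3 WKY samples was read on Affymetrix RG-U34A arrays, and each sample was grouped by its title. The intensity values were deposited by the authors as linear numbers, 1 for every probe set on every array, and had already been scaled. No source used here names the algorithm or the scaling. Settings files deposited by the authors (other values) gave the fluidics module and the clock times of hybridization. From these times the hybridization runs were inferred, split at a gap of over 60 minutes, without use of the date. Gene names came from GEO's annotation of the array, and gene order and promoter windows came from RefSeq, GRCr8. After 59 controls were left out, 5244 of 8740 probe sets passed the filter. Values were log2(intensity + 181.5), the 20th percentile of values above 0. Strains were compared with limma 3.58.1 in R 4.3.3 (lmFit, eBayes with trend, two-sided, no covariate), adjusted over all tested probe sets. The number of arrays limits precision. The steps were tested on simulated data.

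The members and lists were chosen with earlier results of these data known. Every member probe set was named, and of the listed pathway genes those called, the 8 of smallest p and a fixed set. Probe sets of Akt2, Ywhaz and Irs2 beyond the brightest were added after their values were seen. The Me1 probe sets beyond the brightest were also outside the plan. Alternatives covered normalization, pseudocount (1 and 4 times), filter (none, 60th percentile), variance model, blocks, single arrays left out and averaging the probe sets of a gene.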

Additional observations from a re-analysis of the deposited data

How the results depend on the processing

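Over 18 alternatives, 289 of 306 differences of the 17 tested probe sets kept their direction. An adjusted p existed for 297 of them, the other 9 being under that setting's filter, and 269 of the 297 kept both direction and side of the threshold. The 1 IGF system call, Grb14, was lost (0 called) with a pseudocount of 1 (1.26, adjusted p = 0.0568), no filter (1.15, 0.0851, where 8740 probe sets are adjusted over), eBayes without a trend (1.15, 0.0720), the replicate block (1.15, 0.111), the run block (1.39, 0.202), the first run alone (1.39, 0.374), the fluidics module block (1.05, 0.228), and in each fit without 1 array (0 in all 6). Calls over all probe sets, 102 as reported, fell to 60 without a trend, 53 with the replicate block, 20 with the run block, 1 in the first run alone, 46 with the module block, and 36 to 59 without 1 array. The block fits, the first run alone and the fits without 1 array leave fewer residual degrees of freedom by construction. The cause of the fall in calls was not tested, for these or for the fit without a trend. With the module block a difference rests on SHR replicates 2 and 3 against WKY replicates 1 and 2, in that order. These pairs alone shared a module, and in both the SHR array was of the second run and the WKY array of the first. Pathway genes called went to 2 when the probe sets of a gene were averaged. The labels do not say whether replicate numbers pair the arrays. Same-numbered deviations correlated at 0.0009, 0.011 and 0.071 across probe sets, so values with the replicate block are written out only here. The block is also counted among the 18 alternatives. Such a value over all probe sets does not exclude pairing in single ones. Irs2 AF083418_at rose from replicate 1 to 3 in both strains, and its limma adjusted p was 0.414 without and 0.0776 with the replicate block.

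Signs turned in 17 uncalled values of tested probe sets and in 5 values of 3 probe sets under the filter, D00698_s_at (-0.33 to 0.026 without 1 array), X16703_i_at (-0.059 to 0.53) and rc_AI070577_at (-0.39 to 0.25, and 0.026 with a pseudocount of 1). M91595exon_s_at of Igfbp2 was at -0.016 with quantile normalization, -0.054 with the run block and in the first run, and -0.049 to 0.069 without 1 array. Igf1 M15481_at was at -0.31 with the run block and in the first run, and -0.17 to 0.52 without 1 array, and Igfbp6 at 0.014 with the run block and in the first run. Igfbp3 M31837_at was at -0.15 and rc_AI009405_s_at at -0.0056 with the module block, and the first ran from -0.052 to 0.28 without 1 array. Without 1 array, Igf2 M17960_g_at ran from -0.062 to 0.23 and X17012mRNA_s_at from -0.057 to 0.25. The cause was not tested. Dim probe sets near the pseudocount, such as those of Igfbp5, limit what small differences can be seen.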
